A study of Mus musculus with 24 samples.

Results

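The genes described here write, copy, read and erase DNA methylation: Dnmt1, Uhrf1 and Uhrf2 (maintenance), Dnmt3a and Dnmt3b (de novo methylation), Tet1, Tet2 and Tet3 (oxidation of methylcytosine) and Mbd2 (a reader of methylated CpG). They were taken by symbol, and all 9 were found among the 23420 gene symbols of each count table. Their levels were followed through 24 RNA-seq libraries of C57BL/6 mouse cells in 10 groups. The 8 Th2 libraries were 4 WT and 4 TDG iKO. The 16 libraries of bone marrow-derived macrophages (BMDMs) formed a Tdg cohort (WT and TDG iKO) and a Tet cohort (WT and TET iTKO) sampled before (0 h) and after 6 h of KLA, a lipid A that activates macrophages through TLR4 (2 libraries per group). TDG iKO mice carried floxed Tdg and TET iTKO mice floxed Tet1, Tet2 and Tet3 (fl/fl for every gene named), each with CreERT2, a tamoxifen-activated Cre, at the Ndor1 locus. Cre-carrying and control mice were 8 to 16 weeks old, and both were injected with tamoxifen. For some mice the study's methods also name Rosa26 reporters of Cre activity. For Th2 cells, naive CD4 T cells were activated through CD3 and CD28 with IL-4 and anti-IFN-γ and then grown in IL-2, and BMDMs were the adherent cells of bone marrow grown in L929-conditioned medium and then M-CSF.

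DNMT1 restores methylation on the new DNA strand after replication, and UHRF1 brings it there by binding CpG sites methylated on the parental strand. UHRF2 is a paralogue of UHRF1 that also binds modified cytosine. DNMT3A and DNMT3B methylate CpG sites that carried no mark. TET enzymes oxidise methylcytosine to hydroxymethylcytosine and beyond, after which the mark is lost through replication, where DNMT1 does not copy it well, or through excision of the further oxidised bases by TDG. MBD2 binds methylated CpG and carries the NuRD complex, which holds histone deacetylases and a chromatin remodeller.

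Assigned read pairs ranged from 4982950 to 26657729 per library with a median of 14853861. Marker genes fitted the labelled cells. The summed normalised count (raw count divided by the library's DESeq2 size factor) of 8 T cell markers was 22811 to 32272 in the Th2 libraries and 114 to 390 in the BMDM libraries, and that of 7 macrophage markers was 115 to 640 and 308839 to 399756. KLA had acted in every stimulated pair of libraries, because the cytokine gene Il1b was at 15.6 to 409 at 0 h and at 1882 to 7839 at 6 h. Th2 replicates 3 and 4 of each genotype differed by little more than counting noise (mean chi-square per gene 1.34 to 1.54, against 21.3 to 229 for the other Th2 pairs) and were counted as 1 sample, so that n = 3 per genotype. The Th2 and Tdg cohort labels do not say whether replicates came from separate mice. If they did not, p-values cover the spread between these samples only. In bulk libraries, fewer cells of a type and less RNA per cell cannot be told apart.

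The deletions could not be checked from the members' own counts. Cre removes floxed exons and leaves the rest of the gene, and the tables count read pairs over the whole gene. The study's qRT-PCR primers for the TET genes are shown because they mark the short stretch of each transcript that such an assay reads, against the whole gene counted here (5′ to 3′, with capitals for the bases of the Tet2 reverse primer that lie in exon 10):
Tet1 forward: gagcctgttcctcgatgtgg
Tet1 reverse: caaacccacctgaggctgtt
Tet2 forward: tggctactgtcattgctcca
Tet2 reverse: TGAGGGTGACCACcactgta
Tet3 forward: cgagttccctacctgcgatt
Tet3 reverse: tcctccatgagttcccggat
On mm9 the Tet1 pair lies in exons 12 and 13 of 13 on chr10 (minus strand) and spans 202 bases, 1.4% of the longest transcript. The Tet2 pair reaches from exon 8 across the junction of exons 9 and 10 of 11 on chr3 (minus strand) and spans 210 bases, 2.3% of the transcript. The Tet3 pair lies in exons 3 and 4 of 11 on chr6 (minus strand) and spans 114 bases, 1.0%. Over the whole gene, neither Tet2 nor Tet3 was lower in TET iTKO libraries, as given with the TET comparison. Ndor1, the gene at the Cre insertion, was lower in those libraries by 0.72 on the log2 scale at 0 h (DESeq2 adjusted p = 0.00749) and by 0.71 at 6 h (adjusted p = 0.00987). In the TDG iKO libraries its log2 fold change was -1.36 in Th2 cells, -0.49 at 0 h and -0.84 at 6 h, none past the threshold of 0.05 (DESeq2 adjusted p of 1.0 or rounding to it). Tdg itself had normalised counts of 0 to 9.22 in all 24 libraries and could check no label.

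The members differed between the cell types more than in any other comparison. Compared with unstimulated WT BMDMs (n = 4), WT Th2 cells (n = 3) had more Tet1, Tet2, Dnmt1, Dnmt3b and Uhrf1 and less Dnmt3a, while Tet3, Uhrf2 and Mbd2 did not pass the test. Of 13913 genes tested, 54.8% passed DESeq2 at an adjusted p under 0.05 (29% higher and 25.8% lower in Th2 cells), so that 6 of 9 members (5 higher, 1 lower) is near the share of all genes. The median log2 fold change was 1.28 over the members and 0.13 over all genes tested. Cell type, culture, multiply mapped read pairs (30.9% to 32.2% of pairs in Th2 and 16.6% to 25.8% in BMDM libraries) and library batch move together here and cannot be told apart.

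Of the maintenance genes Uhrf1 and Dnmt1 were higher in Th2 cells. Uhrf1 (chr17:56442744-56462909, plus strand, mm9) had normalised counts of 2754, 3036, 2270 and 2257 in WT Th2 replicates 1 to 4. Unstimulated WT BMDMs had 638 and 168 (Tdg cohort) and 63.8 and 58.5 (Tet cohort). The Th2 libraries were all above the BMDM libraries, among which replicate 1 of the Tdg cohort stood far above the others. The log2 fold change was 3.53 ± 0.72 (SE, 11.5-fold, DESeq2 adjusted p = 3.51e-06). Leaving out 1 library at a time gave 3.19 to 4.86, the highest without Tdg cohort WT replicate 1, and the value was 2.69 against the Tdg cohort alone and 5.40 against the Tet cohort alone. Dnmt1 (chr9:20711650-20757317, minus strand) had 4688, 4061, 4640 and 4515 in WT Th2 cells. The WT BMDMs had 2010 and 1428 (Tdg cohort) and 1889 and 2013 (Tet cohort), again without overlap. Its log2 fold change was 1.28 ± 0.21 (adjusted p = 5.81e-09, DESeq2). Uhrf2 (chr19:30105003-30168212, plus strand) went the other way in value, with -0.33 ± 0.23 (DESeq2 adjusted p = 0.216), and its 4 WT Th2 values of 1078 to 1552 overlapped the BMDM values of 1383 to 1902. Per kilobase of exon, counting every annotated exon of a gene, Uhrf1 was at 2.95 to 5.15 times Uhrf2 in the 8 Th2 libraries. It was below Uhrf2 in all 16 BMDM libraries (0.0598 to 0.677 times). The exons cover 8590 bases for Uhrf2 and 4259 for Uhrf1, against longest coding transcripts of 3536 and 3586 bases. The size of the ratio therefore depends on the length used. Part of Uhrf1 has near-identical copies (97.8% identity over 71.8% of its transcript), and pairs that map to several places are not counted, so its counts are uncertain to that extent in all libraries. Dnmt3b has a copy of lower identity (89.0% over 41.5%).

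Of the de novo enzymes, Dnmt3b (chr2:153475186-153513466, plus strand) had 158, 169, 108 and 103 in WT Th2 cells. Its 4 unstimulated WT BMDM values were 25.6 and 30.5 (Tdg cohort) and 22.4 and 22.8 (Tet cohort), from 10 to 35 read pairs. The groups did not overlap and the log2 fold change was 2.54 ± 0.36 (adjusted p = 1.90e-11, DESeq2). Dnmt3a (chr12:3806007-3914443, plus strand) was lower in Th2 cells, at 1052, 936, 1420 and 1447. The BMDM values were 1577 and 1608 (Tdg cohort) and 2380 and 2713 (Tet cohort), so the nearest libraries of the cell types were 1447 and 1577. The log2 fold change of -0.85 ± 0.30 passed DESeq2 (adjusted p = 0.00977) and was not called without Th2 replicate 1 (-0.78, adjusted p = 0.0705), Th2 replicate 2 (-0.71, 0.0826) or Tet cohort WT replicate 2 (-0.70, 0.0577), nor against WT of the Tdg cohort alone (-0.51, 0.209), while leaving out 1 library at a time gave adjusted p from 0.00162 to 0.0826. Gm10485, on the opposite strand of Dnmt3a, was at 0 in all Th2 libraries and at 2.23 to 117 in BMDM libraries, and reads of both genes cannot be told apart if strand was not used, a setting not given in the sources used here.

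Among the TET genes, Tet1 (chr10:62267318-62361866, minus strand) was at 112 to 233 in the 8 Th2 libraries and at most 16.8 in the 16 BMDM libraries. WT Th2 cells had 182, 164, 112 and 129, and none of the 4 unstimulated WT BMDM libraries held a read pair of it. Against a floor of 3 counts over those 4 libraries, it was at least 195-fold higher in Th2 cells (DESeq2 adjusted p = 7.50e-17). Tet2 (chr3:133126643-133207354, minus strand) had 1388, 1269, 1649 and 1621 in WT Th2 cells. In WT BMDMs it had 624 and 512 (Tdg cohort) and 506 and 603 (Tet cohort), all lower. Its log2 fold change was 1.35 ± 0.21 (2.56-fold, DESeq2 adjusted p = 5.97e-10). Tet3 (chr6:83312367-83391672, minus strand) was at 623 to 1264 in WT Th2 and 754 to 1381 in WT BMDMs, which overlap, with a log2 fold change of -0.19 (95% interval -0.87 to 0.50, DESeq2 adjusted p = 0.670). Mbd2 was at 2172 to 2322 in WT Th2 and 2098 to 2335 in WT BMDMs. Relative to its level it had the narrowest range of the members over the 24 libraries, 1761 to 2436.

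The order of levels per kilobase of exon differed accordingly. In WT Th2 cells it ran from Dnmt1 (844 ± 63.6 normalised counts per kb, mean ± SD, n = 3) through Mbd2 (704 ± 25.01), Uhrf1 (630 ± 91.8), Tet2 (155 ± 20.3), Uhrf2 (150 ± 25.2), Tet3 (84.6 ± 27.7), Dnmt3a (68.5 ± 15.6) and Dnmt3b (28.2 ± 6.66) to Tet1 (10.6 ± 2.15). The neighbours Mbd2 and Uhrf1, Tet2 and Uhrf2, and Tet3 and Dnmt3a overlapped in range. In unstimulated WT BMDMs (n = 4) Mbd2 led at 697 ± 31.3, followed by Dnmt1 at 349 ± 52.7, Uhrf2 at 189 ± 26.3, Dnmt3a at 124 ± 34.1, Tet3 at 96.7 ± 29.5, Tet2 at 61.0 ± 6.65, Uhrf1 at 54.5 ± 64.7 and Dnmt3b at 4.96 ± 0.726, with Tet1 at 0. There the ranges of Uhrf2 and Dnmt3a, Dnmt3a and Tet3, and Tet2 and Uhrf1 overlapped. Mbd2 thus had nearly the same level in both cell types, and Uhrf1 moved from the third place to the seventh. The order between genes depends on the length used, because the annotated exons exceed the longest coding transcript by different amounts. These lengths were 8590 and 3536 bases for Uhrf2, 16642 and 9685 for Dnmt3a, 3214 and 1953 for Mbd2, and 5264 for both in Dnmt1.

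**Figure D1:**
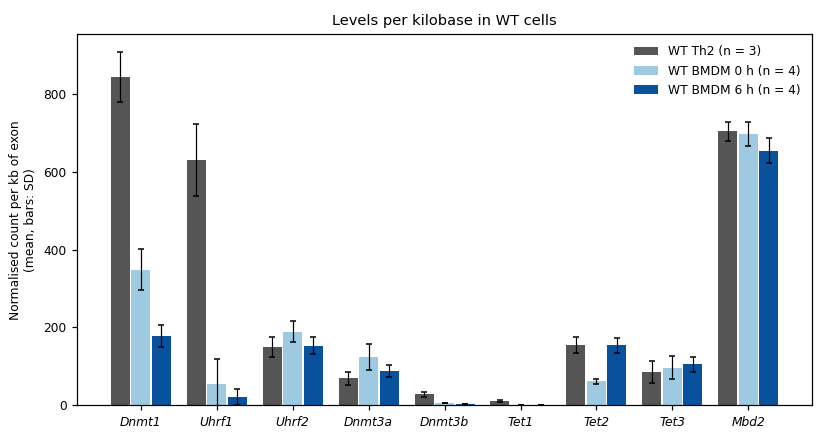
Bars give the mean normalised count per kilobase of exon for each gene in WT Th2 cells (n = 3) and WT BMDMs at 0 h and 6 h of KLA (n = 4 each), with SD. Dnmt1 falls from 844 in Th2 to 349 in unstimulated BMDMs and 178 after KLA, Tet2 goes from 155 to 61.0 and back to 154, and Mbd2 stays between 654 and 704.

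Genes that work with the members were also counted, by lists that include the members. Of 8 maintenance genes, 5 rose and none fell in Th2 cells (median log2 fold change 2.18), led by Cdca7, which helps remodel nucleosomes for methylation (3.57), and Uhrf1. Of 11 NuRD partners 9 rose and none fell (median 1.19), with Mta1 at 2.04 and Chd3 at 1.99. Of 17 tested genes of DNA replication and S phase 15 rose and none fell, with Mki67, a marker of cycling cells, at 4.99 and Ccnb1 at 4.41. Of 10 genes of the TET list 4 rose and 2 fell (median -0.24), among the latter Idh1, which makes the TET cosubstrate alpha-ketoglutarate (-3.21), and Gadd45a (-4.33). Of 8 methyl-CpG readers Mbd4 rose (0.89) and Zbtb4 fell (-1.33). Over all genes tested 29% rose and 25.8% fell.

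KLA raised Tet2 and lowered Dnmt1 in all 4 genotype groups of BMDMs, and in the Tet cohort it also lowered Dnmt3a and Uhrf2. At adjusted p under 0.05 DESeq2 called 2 of the 9 genes (1 higher, 1 lower) in WT cells of the Tdg cohort, where 8.6% of 11633 genes were called, 5.29% higher and 3.32% lower. It called 2 (1 higher, 1 lower) in TDG iKO cells, where 7.08% of 11633 genes were called, 4.27% higher and 2.81% lower. It called 5 (2 higher, 3 lower) in WT cells of the Tet cohort, where 24.1% of 11917 genes were called, 13.1% higher and 11.1% lower. It called 5 (1 higher, 4 lower) in TET iTKO cells, where 24.4% of 11352 genes were called, 12.8% higher and 11.6% lower. The median log2 fold change over the members was -0.18, -0.36, -0.44 and -0.37 in that order, with medians over all genes between -0.03 and 0.00.

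Tet2 rose in every same-numbered pair of libraries. Counts in WT cells of the Tdg cohort went from 624 and 512 at 0 h to 1348 and 1666 at 6 h (log2 fold change 1.41 ± 0.30, DESeq2 adjusted p = 8.99e-05). In TDG iKO cells it went from 576 and 731 to 1456 and 1606 (1.24 ± 0.29, DESeq2 adjusted p = 0.000784). In WT cells of the Tet cohort it went from 506 and 603 to 1236 and 1410 (1.26 ± 0.14, DESeq2 adjusted p = 6.27e-18). The 8 unstimulated libraries lay between 506 and 737 and the 8 stimulated ones between 1236 and 1666, with no overlap. In the libraries labelled TET iTKO the counts went from 737 and 702 to 1485 and 1611 (1.11 ± 0.14, DESeq2 adjusted p = 3.79e-14), and since these counts cover the whole gene they do not say how much intact Tet2 was made. The stimulated BMDMs reached the level of Th2 cells, which ranged from 1012 to 1649. In the Tdg cohort the call was lost without WT 6 h replicate 2 (1.23, DESeq2 adjusted p = 0.0646), TDG iKO 0 h replicate 1 (1.08, 0.0965) or TDG iKO 6 h replicate 2 (1.16, 0.0966). Leaving out 1 library at a time, its adjusted p ranged from 0.000265 to 0.0646 in WT and from 0.0101 to 0.0966 in TDG iKO cells.

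Tet1 was at most 6 read pairs in any unstimulated BMDM library and at 3 to 17 after KLA. In WT cells of the Tet cohort it went from 0 and 0 to 7 and 11 read pairs, at least 7.23-fold higher against a floor of 3 counts over the group (DESeq2 adjusted p = 0.00689), a call that rests on 18 read pairs and was lost (adjusted p from 0.0173 to 0.108 when 1 library at a time was left out) without 0 h replicate 1 (0.0708), 0 h replicate 2 (0.108) or 6 h replicate 2 (0.0629). In WT cells of the Tdg cohort it went from 0 and 0 to 3 and 16 read pairs and was not called (DESeq2 adjusted p = 0.144). Tet3 had no common direction. It rose in value in both WT pairs of the Tdg cohort, from 754 and 828 to 946 and 1460, and fell in value in the other 6 pairs. No Tet3 response passed DESeq2 (log2 fold changes of 0.61, -0.36, -0.27 and -0.25, with adjusted p from 0.0849 to 0.966), and edgeR called the fall in WT cells of the Tet cohort (-0.27, edgeR adjusted p = 0.0407). Per kilobase, Tet3 was above Tet2 in all 8 unstimulated BMDM libraries (Tet2 to Tet3 ratio 0.441 to 0.998), and Tet2 was above Tet3 in all 8 stimulated libraries (1.35 to 2.92) and in all 8 Th2 libraries (1.57 to 2.46).

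Dnmt1 moved opposite to Tet2. WT cells of the Tdg cohort had 2010 and 1428 at 0 h and 813 and 818 at 6 h (log2 fold change -1.08 ± 0.30, DESeq2 adjusted p = 0.00599). TDG iKO cells had 1851 and 2354, then 746 and 837 (-1.40 ± 0.30, DESeq2 adjusted p = 0.000103). WT cells of the Tet cohort had 1889 and 2013, then 1113 and 1003 (-0.87 ± 0.12, DESeq2 adjusted p = 3.04e-12). Every stimulated library was below every unstimulated library of the 16. TET iTKO cells had 1981 and 1939, then 1006 and 955 (-0.998 ± 0.12, DESeq2 adjusted p = 1.24e-15). In WT cells of the Tdg cohort the call was lost without 6 h replicate 1 (-1.06, DESeq2 adjusted p = 0.132) or 6 h replicate 2 (-1.09, 0.183) and with edgeR (-1.05, edgeR adjusted p = 0.0751). Leaving out 1 library at a time gave DESeq2 adjusted p from 0.00114 to 0.183.

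Dnmt3a, Uhrf1 and Uhrf2 fell in value as well. Dnmt1, Dnmt3a, Uhrf1 and Uhrf2 were lower at 6 h in all 8 same-numbered pairs, as were 18.4% of the 9530 genes whose mean normalised count reached 50, and Tet2 was higher in all 8, as were 21.3%. Dnmt3a passed DESeq2 in WT cells of the Tet cohort, where it went from 2380 and 2713 to 1569 and 1687 (-0.64 ± 0.13, DESeq2 adjusted p = 4.11e-06). In TET iTKO cells it went from 2036 and 1756 to 1499 and 1439 (-0.37 ± 0.13, DESeq2 adjusted p = 0.0186), a call lost without 0 h replicate 1 (-0.25, adjusted p = 0.337), 6 h replicate 1 (-0.41, 0.0589) or 6 h replicate 2 (-0.33, 0.163), with adjusted p from 0.0189 to 0.337 over the 4 libraries left out in turn. In the Tdg cohort its values were -0.30 in WT and -0.71 in TDG iKO cells, neither called. Gm10485, opposite to Dnmt3a, went with it, from 79.0 and 99.5 to 23.6 and 38.2 in WT cells of the Tet cohort.

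Uhrf2 went from 1514 and 1696 to 1102 and 1256 in WT cells of the Tet cohort (-0.44 ± 0.13, DESeq2 adjusted p = 0.00335), a call lost without 6 h replicate 1 (-0.34, 0.0950) or 0 h replicate 2 (-0.35, 0.159), with adjusted p from 0.00302 to 0.159 over the 4 libraries left out in turn. In TET iTKO cells it went from 1635 and 1520 to 1248 and 1272 (-0.32 ± 0.13, DESeq2 adjusted p = 0.0452), and leaving out any library of that group ended the call (-0.38 to -0.26, adjusted p from 0.110 to 0.338). Uhrf1 was lower in value in the Tdg cohort, from 638 and 168 to 224 and 62.9 in WT cells (-1.50 ± 0.79, DESeq2 adjusted p = 0.271) and from 585 and 217 to 236 and 72.0 in TDG iKO cells (-1.38 ± 0.79, DESeq2 adjusted p = 0.468). It was lower at 6 h in each same-numbered pair, while replicate 1 lay far above replicate 2 at both times. These fits did not pair libraries. A replicate block, for libraries that share only a number, called these falls of Uhrf1, as given with the alternatives. Uhrf1 in WT cells of the Tet cohort was at 63.8 and 58.5, then 39.3 and 37.2 (-0.67 ± 0.42, DESeq2 adjusted p = 0.284). Mbd2 passed only in TET iTKO cells, from 2393 and 2328 to 1761 and 1880 (-0.37 ± 0.11, DESeq2 adjusted p = 0.00277, and 0.0132 to 0.0664 with 1 library left out, the highest without 0 h replicate 1). Dnmt3b, at 8 to 35 read pairs in every BMDM library, was called in no genotype.

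**Figure D2:**
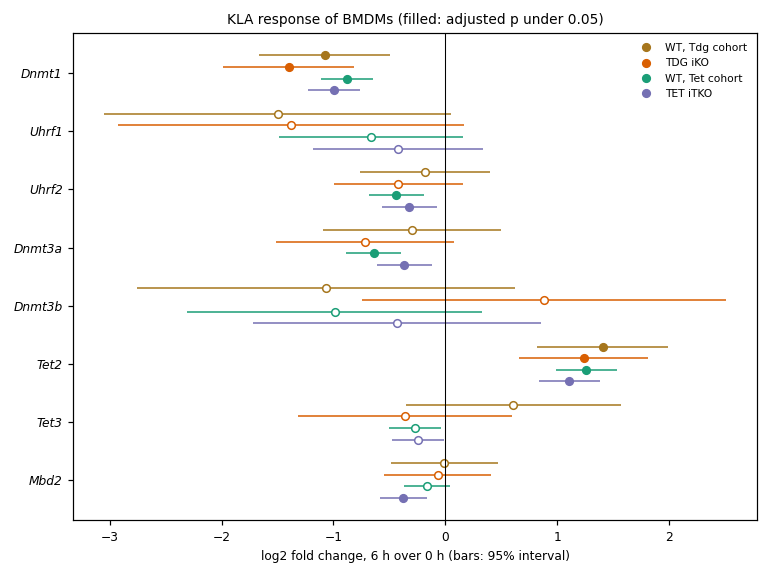
Points give the log2 fold change of 6 h KLA over 0 h with its 95% interval for 8 of the genes (Tet1 left out because of its 0 counts) in the 4 genotype groups, filled where the DESeq2 adjusted p is under 0.05. Tet2 lies at 1.11 to 1.41 and Dnmt1 at -1.40 to -0.87 in all groups. The intervals of Uhrf1, from fits that did not pair libraries, cross 0.

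Other genes of the lists moved with KLA too. In WT cells of the Tet cohort 4 of 20 genes of DNA replication and S phase fell (Pcna, Mcm2, Mcm6 and Cdt1) and 1 rose (Ccne1, 0.99), with a median of -0.48. Mcm6, a subunit of the replicative helicase, fell by 1.09 and Cdt1, which loads it, by 1.01. The same 4 genes fell in the other 3 genotype groups, with Mcm3 and Mcm4 in TET iTKO cells as well, and Ccne1 rose in TET iTKO cells (1.21). Of 10 genes of the TET list, which include Tet1 and Tet2, 3 rose and 3 fell in WT cells of the Tet cohort. There Gadd45b, a stress-induced gene, rose by 1.48 and Idh1 and Idh2 fell by 0.71 and 0.86. Of the methyl-CpG readers Zbtb38 fell (-0.77) in the same cells, and of 11 NuRD partners 3 rose, with Hdac1 at 0.71. Over all genes tested in WT cells of the Tet cohort 13.1% rose and 11.1% fell. The share that fell was 3.32% in WT cells of the Tdg cohort and 2.81% in TDG iKO cells. In TET iTKO cells 12.8% rose and 11.6% fell.

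Promoter sequence is shown for Tet2, the member that KLA raised in all groups, and for Uhrf1, a member whose level spread widely between libraries, so that the density of CpG sites can be seen beside the levels. Each window holds the 250 bases before a transcription start in RefSeq (GRCm38.p6), 5′ to 3′ on the gene's strand, with each CG in capitals.
Tet2, chr3:133544391-133544640, minus strand: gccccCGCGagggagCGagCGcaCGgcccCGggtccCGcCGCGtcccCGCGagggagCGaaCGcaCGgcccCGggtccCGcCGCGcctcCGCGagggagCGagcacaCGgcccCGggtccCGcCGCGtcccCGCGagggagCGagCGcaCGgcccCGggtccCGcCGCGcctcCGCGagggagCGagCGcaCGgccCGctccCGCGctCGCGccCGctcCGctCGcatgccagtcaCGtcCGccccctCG
Uhrf1, chr17:56304063-56304312, plus strand: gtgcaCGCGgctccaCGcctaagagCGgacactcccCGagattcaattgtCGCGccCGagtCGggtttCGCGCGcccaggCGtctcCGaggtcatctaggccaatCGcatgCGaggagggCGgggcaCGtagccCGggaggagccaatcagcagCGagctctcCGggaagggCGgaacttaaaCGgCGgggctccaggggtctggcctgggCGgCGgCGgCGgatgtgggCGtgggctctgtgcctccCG
The Tet2 window holds 51 CpG sites, more than 99.9% of 32851 such windows, and the Uhrf1 window shown 30, more than 94.1%, where the median window holds 6. Uhrf1 has another RefSeq start, whose window (chr17:56303087-56303336) holds 10 CpG sites, more than 62.2%, and the denser window is shown. Windows of 8 of the 9 genes were used, and no window of Mbd2 is reported here. On both strands no window of these 8 genes held either E2F motif searched, TTTCCCGC (in 0.895% of all windows) or TTTGGCGC (0.417%). None held either NF-κB motif searched (in 0.085% and 0.14% of all windows). This says only that these letters are absent from these windows, and other forms of the motifs were not searched.

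Loss of the TET enzymes was tested against WT within the Tet cohort. Uhrf1 was higher in the libraries labelled TET iTKO at both times, and Dnmt3a was lower at 0 h. DESeq2 called 2 of the 9 genes (1 higher, 1 lower) at 0 h, where 7.5% of 12200 genes were called, 4.38% higher and 3.12% lower. It called 1, which was higher, at 6 h, where 6.58% of 11634 genes were called, 3.24% higher and 3.34% lower. The median log2 fold change was 0.04 and 0.15 over the members and 0.01 and 0.00 over all genes.

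At 0 h Uhrf1 was at 63.8 and 58.5 in WT libraries and at 99.4 and 211 in those labelled TET iTKO (log2 fold change 1.35 ± 0.40, DESeq2 adjusted p = 0.0136). At 6 h it was at 39.3 and 37.2 in WT and at 77.1 and 155 in TET iTKO libraries (1.59 ± 0.41, DESeq2 adjusted p = 0.00355). TET iTKO libraries were above WT libraries at both times, and replicate 2 was the highest each time. Without TET iTKO replicate 2 the values were 0.71 (DESeq2 adjusted p = 0.859) at 0 h and 1.01 (0.448) at 6 h. The calls were also lost without WT replicate 1 (1.41, adjusted p = 0.133, and 1.63, 0.0620) or WT replicate 2 (1.28, 0.204, and 1.56, 0.0604), and edgeR called neither (edgeR adjusted p = 0.0668 and 0.0557). Leaving out 1 library at a time gave DESeq2 adjusted p from 0.00300 to 0.859 at 0 h and from 0.00155 to 0.448 at 6 h.

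Summed markers of some other cell types were higher in the TET iTKO libraries, as Uhrf1 was. The progenitor marker Cd34 was at 11.7 and 9.75 in WT and at 60.5 and 265 in TET iTKO libraries at 0 h, the only called gene of 4 progenitor markers at that time, whereas Kit of the same list was at 24.2 and 27.96 against 16.4 and 29.2. The summed level of the 4 progenitor markers was 40.4 to 65.7 in WT and 101 to 361 in TET iTKO libraries at 0 h and 39.1 to 39.3 and 117 to 314 at 6 h, with none at 0 throughout the TET iTKO libraries. That of 7 neutrophil markers was 413 to 769 and 967 to 2120 at 0 h, that of 4 B cell markers 20.8 to 25.1 and 73.8 to 291, and replicate 2 of TET iTKO was the highest each time. Of these markers 3 neutrophil and 3 B cell genes were called at 0 h. Other sums overlapped between the genotypes at 0 h. That of 4 dendritic cell markers was 111 and 142 in WT and 71.7 and 141 in TET iTKO libraries. That of 8 T cell markers was 250 and 390 against 257 and 294. Of 7 macrophage markers 3 fell (Cd68, Mertk and Lyz2) and 1 rose (Itgam) at 0 h, with a median log2 fold change of -0.0018. Their sum was 366137 to 377876 in WT and 308839 to 310506 in TET iTKO libraries, of which Lyz2 made up the most (263529 and 251180 against 196605 and 191301). Of 20 genes of DNA replication and S phase 7 rose and 1 fell at 0 h (median 0.89), among them Ccna2 (2.37), Cdc6 (1.89) and Pcna (-0.56), and 5 rose and 1 fell at 6 h. Over all genes tested 4.38% rose and 3.12% fell at 0 h, and 3.24% rose and 3.34% fell at 6 h. Hells, a chromatin remodeller needed for maintenance methylation, rose at 0 h (1.13, DESeq2 adjusted p = 0.00609) and Cdca7, its partner, at 6 h (1.38, DESeq2 adjusted p = 0.0310). The part of these cells in the level of Uhrf1 was not tested.

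Dnmt3a was at 2380 and 2713 in WT and at 2036 and 1756 in TET iTKO libraries at 0 h (log2 fold change -0.43 ± 0.13, DESeq2 adjusted p = 0.0136). The groups did not overlap, but the call was lost without TET iTKO replicate 2 (-0.32, adjusted p = 0.545) or WT replicate 2 (-0.33, 0.374), with adjusted p from 0.0104 to 0.545 over the 4 libraries left out in turn. At 6 h it was at 1569 and 1687 against 1499 and 1439 (-0.15 ± 0.13, DESeq2 adjusted p = 0.649). Gm10485, on its opposite strand, was at 79.0 and 99.5 in WT and at 29.7 and 29.2 in TET iTKO libraries at 0 h. The targeted genes themselves were not lower over the whole gene. Tet2 was at 506 and 603 in WT and at 737 and 702 in TET iTKO libraries at 0 h (0.37 ± 0.14, DESeq2 adjusted p = 0.0900) and at 1236 and 1410 against 1485 and 1611 at 6 h (0.22 ± 0.14, DESeq2 adjusted p = 0.457). Tet3 was at 1381 and 1326 against 1533 and 1413 at 0 h and at 1102 and 1131 against 1242 and 1239 at 6 h, and was called at neither time. Tet1 went from 0 and 0 read pairs in WT to 6 and 2 in TET iTKO libraries at 0 h (DESeq2 adjusted p = 0.105). Dnmt1 was at 1889 and 2013 in WT and at 1981 and 1939 in TET iTKO libraries at 0 h, with the 6 h difference at -0.12 (95% interval -0.35 to 0.12).

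Loss of TDG was tested in Th2 cells and at both times in BMDMs. DESeq2 called none of the 9 genes in any of these comparisons, edgeR called none, and none had an unadjusted p under 0.05. Over all genes 0.0% were called in each, although 77, 265 and 34 genes had an unadjusted p under 0.05 in Th2 cells, BMDMs at 0 h and BMDMs at 6 h. In Th2 cells Dnmt1 was at 4688, 4061, 4640 and 4515 in WT and at 3506, 3871, 4480 and 4471 in TDG iKO libraries. The log2 fold change was -0.17 (95% interval -0.51 to 0.18). The log2 ratio of the mean TDG iKO to the mean WT count was -0.25 over replicates 1 and 2 and -0.03 over replicates 3 and 4. Tet3 was at 956, 623, 1264 and 1208 against 548, 698, 1081 and 1059 (-0.28, interval -0.9995 to 0.44), with -0.34 and -0.21 in these pairs of replicates. Uhrf1 ranged from 2257 to 3036 in WT and from 2493 to 2821 in TDG iKO libraries, with an interval of -0.36 to 0.36.

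The BMDM groups held 2 libraries each. Uhrf1 at 0 h was at 638 and 168 in WT and at 585 and 217 in TDG iKO libraries, so that the replicates of each genotype differed more than the genotypes (interval -1.55 to 1.53). In the same libraries the summed level of 7 neutrophil markers was 2161 and 563 in WT and 6554 and 414 in TDG iKO cells, and the part of these cells was not tested. Tet3 and Dnmt3a were apart in the other direction, with Tet3 at 786 and 1682 and Dnmt3a at 1478 and 2687 in TDG iKO replicates 1 and 2 at 0 h. The interval of the TDG effect on Tet3 at 0 h was -0.32 to 1.59 on the log2 scale.

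**Figure D3:**
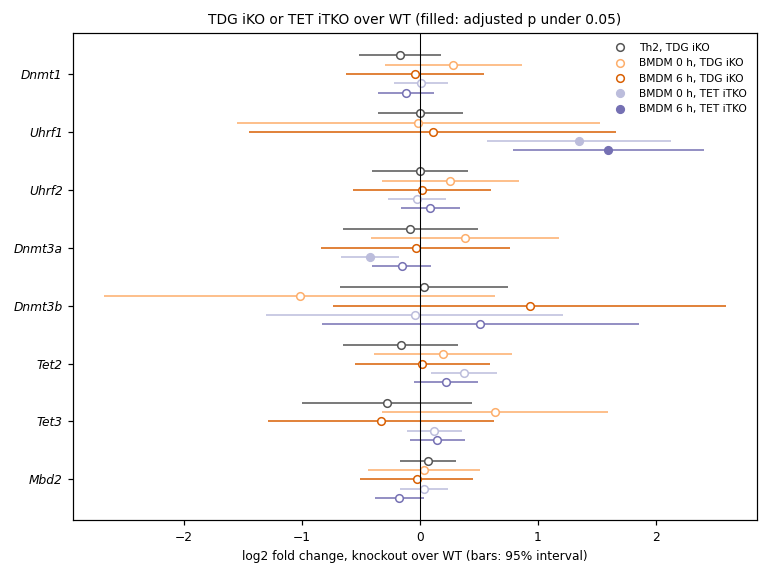
Points give the log2 fold change of TDG iKO or TET iTKO over WT with its 95% interval for 8 of the genes (Tet1 left out because of its 0 counts), filled where the DESeq2 adjusted p is under 0.05. Uhrf1 (1.35 and 1.59) and Dnmt3a (-0.43 at 0 h) are filled for TET iTKO, and no point is filled for TDG iKO.

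The effects of TET and TDG loss, and the KLA response with and without each, were also compared with each other. No change of the KLA response by either knockout passed DESeq2 or edgeR for any of the 9 genes. DESeq2 called 0.0% of 15026 genes for TDG and 0.426% of 12200 for TET, and no member had an unadjusted p under 0.05. With 2 libraries per group some 95% intervals were wide, such as -2.07 to 2.31 for Uhrf1 and -0.40 to 4.29 for Dnmt3b by TDG loss. For Tet2 the change by TET loss was -0.15 (95% interval -0.54 to 0.23), for Dnmt1 it was -0.12 (interval -0.45 to 0.21) by TET and -0.32 (interval -1.15 to 0.50) by TDG loss, and for Tet3 it was -0.97 (interval -2.32 to 0.39) by TDG loss. The higher Uhrf1 in TET iTKO was not shown to differ from the TDG effect. The difference was 1.36 (interval -0.66 to 3.38, DESeq2 adjusted p = 0.836) at 0 h, where 0.355% of 10992 genes were called and Tet1 had no adjusted p, and 1.498 (interval -0.55 to 3.54, DESeq2 adjusted p = 1.0) at 6 h, where 0.0765% of 13075 genes were called. DESeq2 and edgeR called no member in either, nor in the KLA response of WT cells compared between the cohorts (no member had an unadjusted p under 0.05 in these), where 0.0127% of 15753 genes were called and Tet3 differed by 0.87 (interval -0.20 to 1.94).

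**Figure D4:**
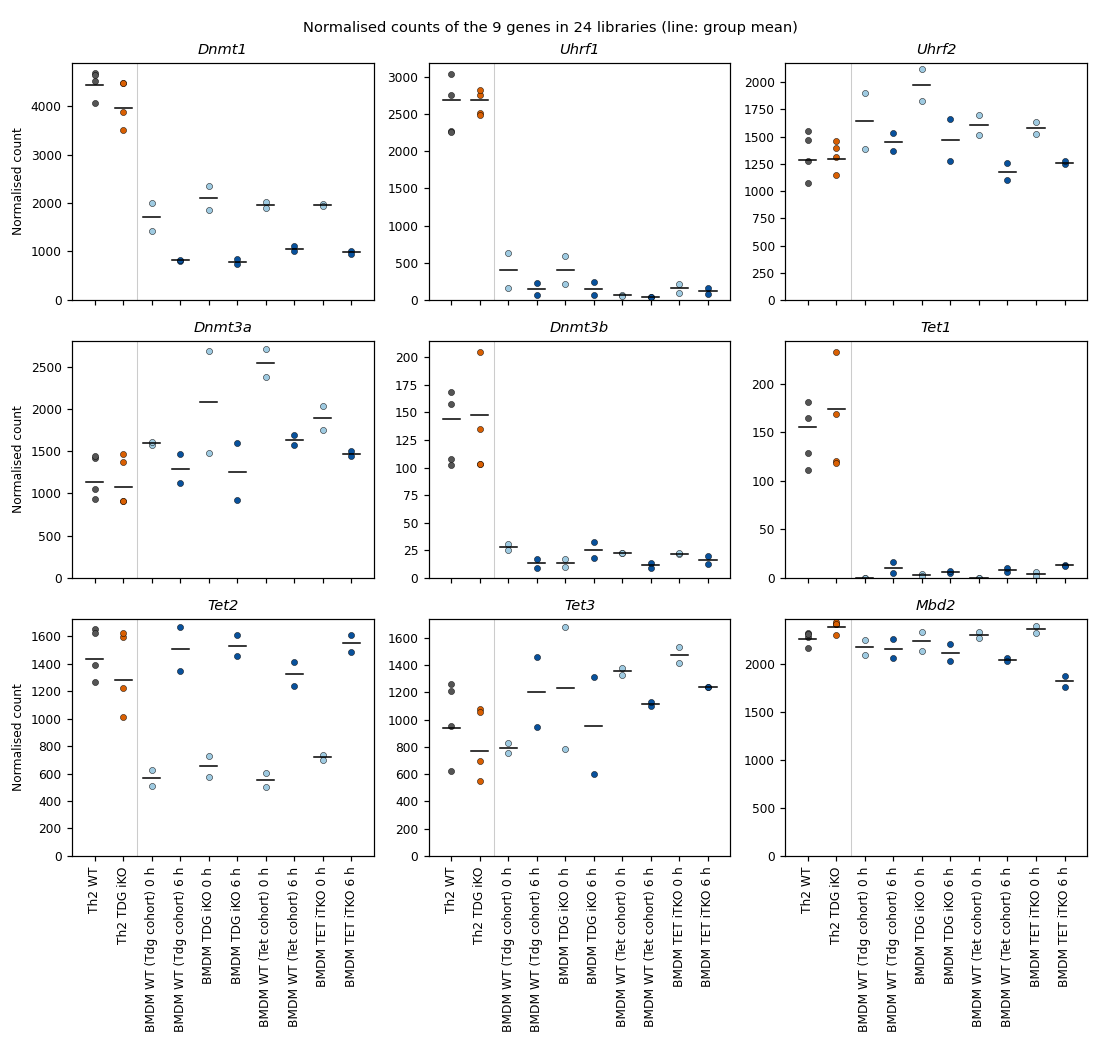
Each point is the normalised count of a gene in 1 library and each line a group mean, for the 9 genes and 10 groups. The dark blue 6 h points lie below the light blue 0 h points for Dnmt1 and above them for Tet2, and the Th2 points stand alone at the top for Uhrf1, Dnmt3b and Tet1.

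Over the means of the 10 groups, the genes whose log2 levels went most closely with each member were found among 10020 genes whose mean normalised count reached 50. Those of Uhrf1 were Ercc6l (Pearson r = 0.998), Mcm7 (0.997) and Mcm5 (0.996), the latter being helicase subunits that act in replication. Those of Dnmt1 were Rfc1, a subunit of the clamp loader (0.993), Rttn (0.986) and Cby1 (0.986), and those of Tet2 included Lcp2 (0.989) and Nfkb1, an NF-κB subunit gene (0.984). Tet3 went most closely with Nup214 (0.974), Dnmt3a with Snx9 (0.972), Uhrf2 with Dock2 (0.971) and Mbd2, which varied least, with Sumo3 (0.898). Tet1 and Dnmt3b were below this level. The 10 means share cell type, stimulation and cohort, and the 2 Th2 means lie far from the rest, so these values only describe the pattern.

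The levels of Uhrf1 and Dnmt1 were set beside those of replication genes. The summed level of 20 genes of DNA replication and S phase was 59760 to 75194 in Th2 libraries. At 0 h it was 22928 and 15304 in WT and 21268 and 12965 in TDG iKO libraries of the Tdg cohort, and 8245 and 9242 in WT and 7931 and 11637 in TET iTKO libraries. At 6 h it ranged from 5274 to 10874. At 0 h in the Tdg cohort, replicate 1 was higher than replicate 2 in both genotypes for the sum and for Uhrf1. Dnmt1 was higher in replicate 1 in WT cells (2010 and 1428) and lower in replicate 1 in TDG iKO cells (1851 and 2354). Within each genotype group both the sum and Dnmt1 were lower at 6 h, without overlap. In TDG iKO replicate 1 the sum went from 21268 to 10874 and Dnmt1 from 1851 to 746. Sums of 0 h and 6 h libraries overlapped only between the cohorts. WT replicate 2 of the Tet cohort at 0 h, for instance, had a sum of 9242 and Dnmt1 at 2013. The part of replication in the level of Dnmt1 was not tested.

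**Figure D5:**
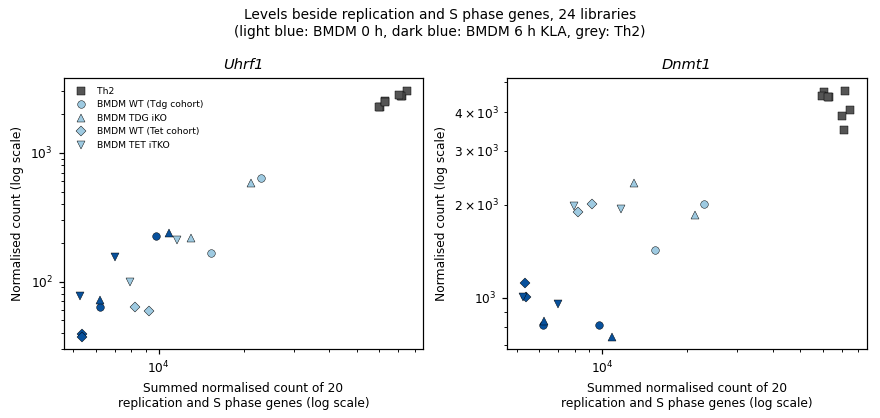
Each point is a library, with the summed normalised count of 20 replication and S phase genes on a log axis and the normalised count of Uhrf1 (left) or Dnmt1 (right) on a log axis. Uhrf1 lies at 37.2 to 638 in BMDMs and 2257 to 3036 in Th2 cells. Dnmt1 lies at 746 to 1113 in stimulated and 1428 to 2354 in unstimulated BMDMs, whose sums overlap only between the cohorts.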

How the data were processed

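The deposited files hold raw counts of read pairs per gene, made by the authors from polyA-selected, strand-specific (NEBNext Ultra II Directional), paired-end libraries read on HiSeq or NovaSeq instruments (which library on which is not given). Per the labels and the submitters' processing notes, reads were aligned to mm9 with HISAT2 and counted with HTSeq-count, and DESeq2 1.30.0 was used. The versions of HISAT2 and HTSeq, the annotation and the strand setting are not given in the sources used here. The 5 tallies of unassigned pairs (32.8% to 51.6% of pairs) were left out of depth and tests.

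Counts were tested with DESeq2 1.42.0 in R 4.3.3 (Wald test, Benjamini-Hochberg adjusted p under 0.05), in separate fits for Th2 cells, each BMDM cohort, all 16 BMDM libraries (TET against TDG effects and the cohorts) and WT cells of both types. The test was also run on simulated data with log2 changes of 2 in 200 genes, which cannot show how it finds smaller changes or genes with low counts. Normalised counts are counts divided by DESeq2 size factors. Counts per kb use the mm9 GENCODE exon union. Intervals are 95% intervals of the log2 fold change. Bounds against a group at 0 use a floor of 3 counts over the group and cover counting error only. Likeness was the Pearson correlation of log2(normalised count + 1). Copies were searched with minimap2 2.31-r1302. Alternatives were edgeR 4.0.16 (quasi-likelihood, TMM), a filter of 10 counts in 2 libraries, other sets of samples, replicate blocks and leaving out each library. The comparison of the KLA response between cohorts and the block within cohorts were chosen after seeing the data.

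All 9 members are named, and of each list the largest 2 rises and 2 falls that passed the test, with others named where a count was small. Some genes that this rule names are not reported here. The members and lists were chosen with earlier results of these data known. Th2 replicates 3 and 4 were summed. Same-numbered Th2 libraries deviated together (lowest r of 4 pairs 0.64), and in the Tet cohort the 0 h and 6 h libraries with the same number share an animal number in the deposited names (r = 0.379 in WT and 0.477 in TET iTKO).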

Additional observations from a re-analysis of the deposited data

How the results depend on the processing

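Over 52 tested values of the members, 532 of 579 alternatives kept direction and side of the threshold, 35 lost and 6 gained a call, and 6 changed sign. With edgeR the number of members called was 1 at 0 h and 0 at 6 h for TET iTKO against WT (2 and 1 with DESeq2) and 1 for KLA in WT cells of the Tdg cohort, where fitting only the groups compared also gave 1 (2 with DESeq2). Leaving out 1 library at a time, members called ranged from 0 to 2 for TET iTKO at 0 h, 0 to 1 at 6 h, 0 to 2 for KLA in WT of the Tdg cohort, 1 to 2 in TDG iKO, 3 to 4 in WT of the Tet cohort, 2 to 4 in TET iTKO, 5 to 6 for Th2 against BMDMs, and stayed at 0 in the other comparisons. The changes of sign were all in values that passed no test. The log2 fold change of Uhrf2 with KLA in WT of the Tdg cohort (-0.37 to 0.049 with 1 library left out) was 0.049 without 0 h replicate 1. That of Tet3 with KLA in TDG iKO (-1.03 to 0.29) was 0.10 without 6 h replicate 1 and 0.29 without 0 h replicate 2. That of Uhrf1 with KLA in TET iTKO (-1.01 to 0.22) was 0.22 without 0 h replicate 2. That of Tet3 in Th2 cells against BMDMs (-0.43 to 0.0502 with 1 library left out, -0.34 without Tdg cohort WT replicate 2) was 0.0502 without Th2 replicate 2 and 0.22 against the Tdg cohort alone. The cause was not tested.

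In the Tdg cohort, libraries share only a number (r of 0 h with 6 h was 0.339 in WT and 0.781 in TDG iKO). A replicate block there added calls for the fall of Uhrf1 with KLA (-1.47 in WT, DESeq2 adjusted p = 0.000118, and -1.44 in TDG iKO, 0.000101, both also with the block nested in genotype), and the nested block for Dnmt3a in TDG iKO (-0.71, DESeq2 adjusted p = 0.0424), which made 4 members called there. The block changed no other member's call. Over all genes, the block moved the count for TDG loss in Th2 cells from 0 to 15 (87 with replicates 3 and 4 kept apart, 2 so without the block, 46 with replicates 1 and 2 only) and in BMDMs at 0 h from 0 to 4. For KLA the counts of 1001 in WT of the Tdg cohort and 824 in TDG iKO became 413 and 346 with edgeR, 1809 and 1375 with the block and 1822 and 1312 with the nested block. The change of the KLA response by TET loss went from 52 genes to 1 with edgeR, 90 and 225 with the blocks and 4 with all 16 libraries. The TET minus TDG counts of 39 and 10 became 0 and 1 with edgeR, 80 and 26 with the block and 186 and 101 with it within cohorts. The cohort difference of 2 became 0 with edgeR and 7 with the block.

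With 2 libraries per BMDM group, the part of sequencing depth was not tested. The lowest depth, 4982950 read pairs, was that of Tdg cohort WT replicate 2 at 0 h, where Uhrf1 rested on 55 read pairs. Tet1 and Dnmt3b rested on 0 to 35 read pairs in BMDMs.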

Other observations

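Other genes of cytosine modification also passed the test. Gadd45a, a stress-response gene linked to DNA repair, fell with KLA in WT cells of the Tet cohort (log2 fold change -0.43, DESeq2 adjusted p = 0.0306) and rose in TET iTKO cells (0.64, DESeq2 adjusted p = 0.000351). The change of its response was itself past the threshold (1.07, DESeq2 adjusted p = 0.00118), and it was named after its values were seen. In that comparison DESeq2 called 0.426% of 12200 genes, and edgeR called far fewer. Gadd45g fell in TET iTKO cells (-1.36, DESeq2 adjusted p = 0.000937) and in WT cells of the Tdg cohort (-1.37, DESeq2 adjusted p = 0.0474). Of the 6 genes of the S-adenosylmethionine cycle, which supplies the methyl group to DNMTs, Mtr, the methionine synthase, fell with KLA in both genotypes of the Tet cohort (-0.71 and -0.82). In Th2 cells against BMDMs Ahcy, which clears the product of methylation reactions, was higher (3.93), and Mtrr was lower (-0.999). Gatad2b, a NuRD subunit, was higher in TET iTKO than in WT BMDMs at 6 h (0.62, DESeq2 adjusted p = 0.0219).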
